A study of Mus musculus with 22 samples.

Results

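Mouse induced pluripotent stem cells (iPSC) that had been differentiated towards osteoblasts for 35 to 40 days (iPSC-OB) were compared with undifferentiated iPSC of the same line. The comparison is described over every gene whose base mean reached 10, which was 14315 of the 19057 genes in the authors' deposited table for these groups, and the 3 tables of the series held 20206 genes between them. The base mean is the mean number of normalised reads per library. Both groups came from a Col2.3GFP miPSC line at passages 10 to 20, so the undifferentiated cells carried the reporter too. Col2.3GFP is a green fluorescent protein reporter under a shortened promoter of the Col1a1 gene, which is switched on in maturing osteoblasts, and the labels name no sorting for it in these cultures, so that they are whole cultures. The iPSC-OB cultures had been kept for 6 days as embryoid bodies, which are floating aggregates that form cells of all germ layers, with 0.1 µM retinoic acid present from day 3 to day 5, and were then plated in osteogenesis medium. The medium of the embryoid bodies lacked LIF, PD0325901 and CHIR99021, which are the cytokine and the MEK and GSK3 inhibitors used to keep mouse stem cells undifferentiated. The labels name 2 iPSC-OB and 2 iPSC samples of 1 line. They do not say whether the samples were separate cultures, so that p-values measure only the spread between these samples, which may be technical. They also allow growth on mouse embryonic fibroblast (MEF) feeders or without feeders, and a standard or an ultra-low input RNA kit, without saying which was used for which sample.

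Osteoblasts are the cells that make bone. They arise from mesenchymal progenitors under the transcription factors Runx2 and Sp7 (osterix), lay down a matrix of type I collagen and bone sialoprotein (Ibsp), mineralise it with the help of alkaline phosphatase (Alpl) and osteocalcin (Bglap), and in part become osteocytes, which express Dmp1, Mepe, Phex and Sost. Pluripotent stem cells are held undifferentiated by Pou5f1, Nanog and Sox2. Cultures grown from embryoid bodies usually hold cells of several lineages besides the one aimed at, among them yolk sac endoderm, which secretes a thick basement membrane (parietal endoderm) or liver-type plasma proteins (visceral endoderm). In RNA from whole cultures, fewer cells of a type and less RNA per cell cannot be told apart.

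The libraries behind the table could be recovered from it. Every base mean is a sum of whole reads, each worth a fixed amount in its library. The base means resolved into 5 libraries, of which 2 lay on the iPSC-OB side and 3 on the iPSC side, where the labels used here name 2. Depths were 17.7 and 10.1 M reads for iPSC-OB libraries A and B and 13, 11.7 and 10.4 M reads for iPSC libraries A, B and C. The letters are not tied to the labelled replicates. A single set of whole reads gave the base mean of each of the 8819 genes with a base mean up to 100, and of 166 of 168 more strongly read genes that were tried from the lists and the leading genes. Reads below are these whole reads, not scaled for depth. Library A had 1.75 times the depth of library B, and statements that a library is higher refer to depth-scaled reads.

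The iPSC-OB libraries were unlike each other. Over the 4077 genes with a base mean of 10 to 100, depth-scaled reads in A and B had a Pearson correlation of 0.61 across genes on the log2 scale, and 905 genes (22.2%) differed by more than 4-fold between them, 780 higher in A and 125 higher in B. Pairs of iPSC libraries had correlations of 0.92 to 0.93, and 40 to 46 genes differed that much. Genes are not independent replicates, so these values are a description. Of the iPSC libraries, B and C were the most alike: the mean chi-square of scaled reads, which is 1 under sampling noise alone, was 1.81 for A with B, 1.90 for A with C and 1.24 for B with C. All 3 entered the authors' fit. Of the 4077 genes, 1694 (41.6%) had both iPSC-OB libraries above all 3 iPSC libraries and 1052 (25.8%) had both below. Among the 1338 called higher, a call made on the same libraries, 35 lay above in A alone and 3 in B alone. Called or not, 748 genes lay above the iPSC libraries in A alone and 205 in B alone.

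Of the 14315 genes, 4278 (29.9%) rose and 3917 (27.4%) fell in iPSC-OB by the authors' DESeq2 test (adjusted p under 0.05), and 6120 did not pass. Rises were the larger changes: 1801 genes rose and 1006 fell by at least 4-fold, and 266 rose and 97 fell by at least 32-fold. The median gene stood at 0.06 on the log2 scale. Log2 fold changes and standard errors (SE) here and below are those of the authors' deposited table, where positive values are higher in iPSC-OB. The table does not state its direction, which was read from the pluripotency genes Pou5f1, Nanog and Esrrb. The deposited folds are shrunk towards 0 where reads are few. For genes whose unshrunken change was over 2-fold, the deposited value kept a median of 88.2% of the log2 fold at base means of 10 to 20 and 95.6% at 50 to 100, against 32.5% under 1. Where the iPSC-OB libraries disagreed it could be stronger, as for Ibsp below, whose log2 ratio of depth-scaled mean reads was 8.48 against a deposited 4.69.

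**Figure D1:**
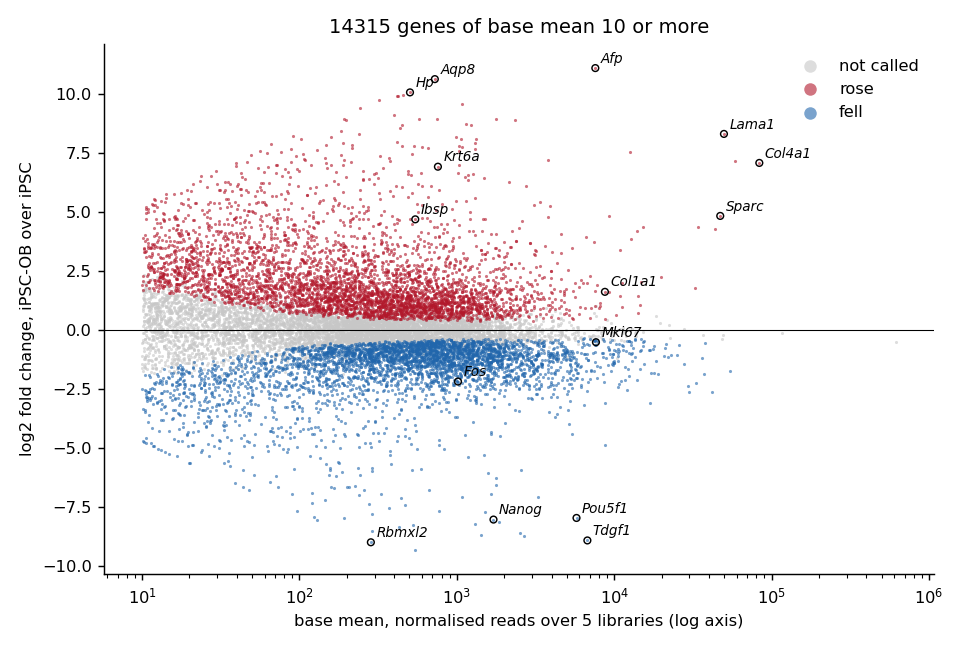
Each point is 1 of the 14315 genes, with the base mean over 5 libraries (log axis) against the log2 fold change of iPSC-OB over iPSC in the authors' deposited table, red where it rose, blue where it fell and grey where it was not called. Afp, Lama1 and Col4a1 stand high at large base means, and Tdgf1, Nanog and Pou5f1 stand low.

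The 15 largest rises were led by Afp and Aqp8. Afp, the fetal serum protein made by visceral endoderm and fetal liver, had 45289 and 5350 reads in iPSC-OB libraries A and B and 9, 2 and 1 in the iPSC libraries, a deposited log2 fold change of 11.11 ± 0.72 (adjusted p = 1.07e-50). Both iPSC-OB libraries were far above all iPSC libraries, and A held more of it than its depth gave. Aqp8, a water channel of gut and liver epithelium, was the next, with 1249 and 2271 reads against 0, 0 and 0, which was at least 1733-fold higher than a floor of 3 reads over the iPSC group. The plasma proteins Hp (haptoglobin) and Fgb (fibrinogen beta) had 2924 and 405 reads against 0, 0 and 0 and 2621 and 381 reads against 0, 0 and 0, at least 1205-fold and 1090-fold higher than that floor. Hkdc1, a hexokinase-like gene, and Cubn (cubilin, the endocytic receptor of absorptive epithelia and visceral endoderm) were high in both libraries, with 1592 and 3553 reads against 3, 2 and 0 and 6792 and 5783 reads against 10, 10 and 10. The others were Fmo2, Psca, S100g, Muc13, Igfbp1, Apoa1, Fmo1, Dpep1 and Serpina3n, with deposited log2 fold changes from 8.93 (Serpina3n) to 9.92 (Fmo2), and library A held more of each than library B.

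The 15 largest falls included the pluripotency factors Nanog and Pou5f1. 2410007B07Rik, a gene without an established role, had 0 and 1 reads against 890, 918 and 780, a deposited log2 fold change of -9.33 ± 0.77. Rbmxl2, an RNA-binding protein gene known from testis, had no read in iPSC-OB and 432, 460 and 454 in iPSC, so it was at least 358-fold lower against a floor of 3 reads over the iPSC-OB group. Tdgf1 (Cripto), the Nodal co-receptor, fell by 8.93 ± 0.38 on the log2 scale. Rex2, Zfp600, Lefty2, Pla2g1b, Dppa3, T, Lefty1, Gm13242, Krt42, Nanog, Pou5f1 and Nr0b1 completed the set, with deposited values from -8.73 (Rex2) to -7.97 (Pou5f1). Dppa3 (Stella) had 3 and 0 reads against 690, 727 and 620, and the mesoderm factor T (brachyury) had 4 and 0 reads against 1344, 686 and 561. The iPSC libraries spread more for T than for Dppa3, with iPSC library A the highest.

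**Figure D2:**
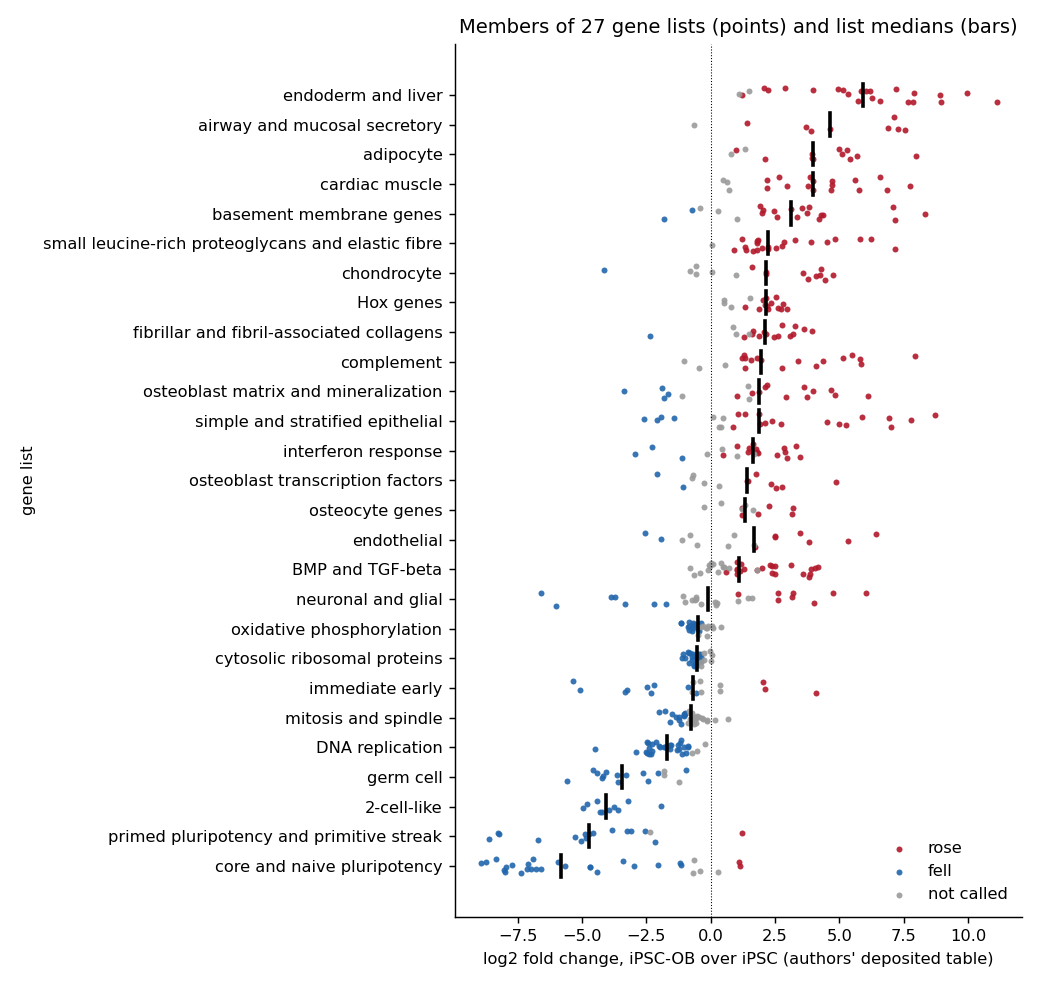
Each point is 1 tested member of 1 of 27 gene lists, placed by its deposited log2 fold change of iPSC-OB over iPSC and coloured by the authors' call (adjusted p under 0.05), with a black bar at the list median. The endoderm and liver list lies highest with a median of 5.94, and the core and naive pluripotency list lowest with a median of -5.81.

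Genes of osteoblast matrix and mineralisation moved both ways, with more rises than falls. Of 22 osteoblast matrix and mineralisation genes, 19 were tested, and 12 rose and 4 fell, with a median of 1.89, against 29.9% and 27.4% of all genes and a median of 0.06. The list counts that follow are to be read against these same shares of all genes. Type I collagen, the main protein of bone, rose modestly: Col1a1 by 1.62 ± 0.46 (adjusted p = 0.00144) and Col1a2 by 1.89 ± 0.49 (adjusted p = 4.51e-04). Osteoglycin (Ogn), a small proteoglycan of bone, rose further, with 3187 and 599 reads against 26, 16 and 8 and a deposited fold of 6.12 ± 0.56. Sparc (osteonectin) rose by 4.84 ± 0.52, Mgp (matrix Gla protein, an inhibitor of mineralisation) by 3.97 ± 0.41 and Postn (periostin) by 3.74 ± 0.43. Alpl went the other way, at -3.35 ± 0.61 (adjusted p = 2.73e-07). It is the mineralising phosphatase of osteoblasts and is also a classical marker of undifferentiated pluripotent cells. The phosphate transporters Slc20a1 and Slc20a2 fell by 1.88 and 1.67 on the log2 scale, and tenascin C (Tnc) by 1.81. Spp1 (osteopontin), secreted by osteoblasts and many other cells, stood at -1.13 ± 0.62 (adjusted p = 0.12) and was not called.

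Several transcription factors of the lineage rose in both iPSC-OB libraries, and osterix did not. Of 16, 13 were tested and 7 rose, with 2 falls, Atf4 among them, and the median was 1.40. Runx2, the master regulator of osteoblasts, had 308 and 133 reads in iPSC-OB libraries A and B and 43, 24 and 23 in the iPSC libraries, a deposited fold of 2.54 ± 0.40 (adjusted p = 1.17e-09); both iPSC-OB libraries were above all iPSC libraries. Msx2, a homeobox gene of skull and limb bone, had 175 and 106 reads against 24, 19 and 24. Sp7, which acts downstream of Runx2 and is needed for bone formation, had 20 and 0 reads against 7, 5 and 9 at a base mean of 7.25, under the minimum of 10, and a deposited value of -0.05 ± 1.13. After scaling by depth library A lay slightly above the iPSC libraries, and library B held no read. Dlx5, a homeobox activator of osterix, had 36 and 0 reads against 3, 0 and 0 and was likewise read in library A but not in B.

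Several genes known from late osteoblasts and osteocytes, picked after their reads were seen, were read mainly in iPSC-OB library A. Phospho1, a phosphatase of mineralisation, was not among them, with 25 and 27 reads against 4, 4 and 5 and the higher scaled level in B. Ibsp had 3904 and 3 reads in iPSC-OB libraries A and B and 5, 3 and 3 in the iPSC libraries; the deposited fold was 4.69 ± 1.26 (adjusted p = 6.76e-04), and without library A its level in iPSC-OB was within the range of the iPSC libraries. The call for Ibsp therefore rests on library A. Dmp1, an acidic phosphoprotein of osteocytes, had 101 and 0 reads against 2, 1 and 1 (deposited fold 3.18 ± 1.20, adjusted p = 0.019). Mepe, a phosphoglycoprotein of osteocytes, had 156 and 0 reads against 0, 0 and 1, and the authors' test did not call it (1.32 ± 1.16, adjusted p = 0.355). Osteocalcin was rare in either library: Bglap had 41 and 1 reads against 0, 1 and 1 and Bglap2 17 and 1 reads against 0, 0 and 0, base means under 10. The near-identical osteocalcin genes can share reads, so the split between them is uncertain. Phex, the endopeptidase of phosphate balance, had 50 and 2 reads against 4, 4 and 5, and Sost (sclerostin) 12 and 1 reads against 3, 2 and 1. Ifitm5, a membrane protein of mineralising osteoblasts, had 21 and 1 reads against 6, 2 and 2. Mmp13, the collagenase of osteoblasts and hypertrophic cartilage, had 947 and 3 reads against 16, 6 and 7, and was called risen on library A alone, as Dmp1 was. For these genes, Phospho1 aside, library A was above all 3 iPSC libraries and library B was not, apart from Bglap and Bglap2, where 1 read in B lay above the scaled iPSC values. On the whole list of 14 osteocyte genes, 11 were tested, 6 rose and 0 fell. Of the 5 members with base means of 10 to 100, 2 lay above all iPSC libraries in both iPSC-OB libraries, 3 in A alone and 0 in B alone. Among all 4077 such genes these counts were 1694, 748 and 205. Ptprz1, a receptor phosphatase also made in brain, had 687 and 57 reads against 77, 58 and 64 and was called risen (1.83 ± 0.68), but in library B it lay within the range of the iPSC libraries, so this call too rests on library A. The other risers are not specific to osteocytes: Pdpn (podoplanin, 3.2 ± 0.44), Mmp14 (1.20 ± 0.21), Cd44 (1.21 ± 0.27) and the Wnt inhibitor Dkk1, with 139 and 88 reads against 24, 18 and 16, which was high in both iPSC-OB libraries.

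**Figure D3:**
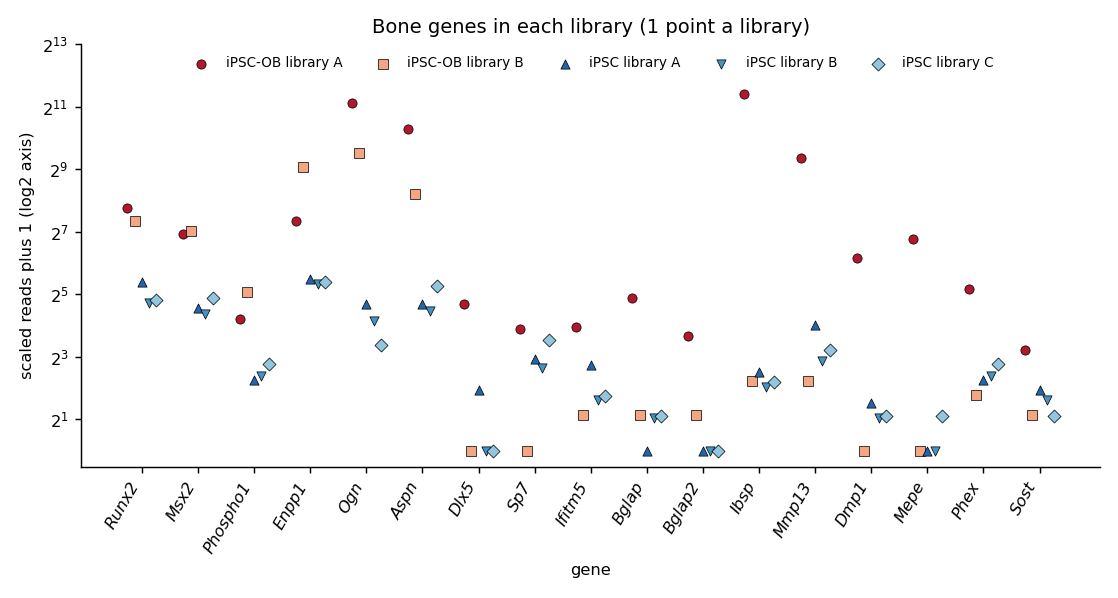
Each point is 1 gene in 1 library, as depth-scaled reads plus 1 on a log2 axis, for 17 bone genes and 5 libraries. From Runx2 to Aspn both iPSC-OB libraries lie above the iPSC libraries, whereas from Dlx5 to Sost library A lies above library B for every gene.

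Of 16 tested hormone and paracrine signal genes of bone, 11 rose, 2 fell and 3 were not called. Pth1r, the parathyroid hormone receptor of osteoblasts and also of parietal endoderm, rose by 5.47 ± 0.47. Igf2, a fetal growth factor, rose by 4.83 ± 0.34, and its binding proteins Igfbp4 and Igfbp5, both made by osteoblasts, rose by 3.10 ± 0.23 and 5.48 ± 0.60. Tnfsf11 (RANKL), the osteoclast-inducing ligand of osteoblasts and osteocytes, fell by 2.25, with 21 and 0 reads against 62, 45 and 30. Calcr, the calcitonin receptor, fell by 4.13, with 4 and 0 reads against 50, 39 and 31. Both iPSC-OB libraries lay below all iPSC libraries in these 2 genes, with no read in library B, and did so in 25.8% of all genes with base means of 10 to 100.

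Many connective tissue matrix genes rose. Of 18 fibrillar and fibril-associated collagens, 14 rose and 1 fell (median 2.11), led by type VI collagen (Col6a1 3.27 ± 0.28, Col6a2 3.06 ± 0.33), which forms beaded filaments around cells, Col12a1 (3.95 ± 0.46) and Col3a1 (2.61 ± 0.32). Col5a3 fell, with 37 and 16 reads against 135, 121 and 97. Genes that fold, hydroxylate and crosslink collagen moved with them: 25 of 28 rose and 2 fell. Lox (lysyl oxidase) rose by 3.28 ± 0.34, the collagen chaperone Serpinh1 (HSP47) by 3.40 ± 0.38, the prolyl hydroxylase subunit P4ha2 by 4.19 ± 0.49 and the procollagen protease Adamts2 by 4.11 ± 0.47. Pcolce2 and Adamts14 fell, with 34 and 3 reads against 169, 151 and 132 for Pcolce2. Small proteoglycans and elastic fibre genes rose in 22 of 23. Decorin (Dcn) had 2154 and 858 reads against 28, 17 and 16, lumican (Lum) 948 and 324 reads against 4, 2 and 2 and Prelp 3212 and 456 reads against 17, 10 and 15. In each of these 3 genes both iPSC-OB libraries lay above all iPSC libraries. This was common, as it held for 41.6% of all genes with base means of 10 to 100, which is below the base means of these 3. Fibronectin (Fn1) stood at 0.05 ± 0.40 (adjusted p = 0.929) and was not called.

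Matrix remodelling genes rose in 16 of 20 and fell in 2. The inhibitors Timp3 and Timp2 rose by 1.8 ± 0.16 and 3.33 ± 0.38, the lysosomal protease Ctsb (cathepsin B) by 2.22 ± 0.25 and Mmp2, a gelatinase of mesenchyme, by 3.06 ± 0.36. Mmp9, the gelatinase of osteoclasts, had 35 and 6 reads against 84, 92 and 67 and fell, as did Timp1 (-0.54 ± 0.20). Fibroblast and tendon genes rose in 9 of 22 (40.9%) and fell in 3 (13.6%), against 29.9% and 27.4% of all genes. Dermatopontin (Dpt) had 191 and 69 reads against 4, 4 and 2 and Ly6a (Sca-1), a surface marker of mesenchymal progenitors, rose by 3.63 ± 0.53. Mkx (mohawk), a regulator of tendon, had 46 and 45 reads against 86, 85 and 81 and fell.

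Undifferentiated iPSC themselves held transcripts of type I collagen, at an estimated 405 CPM for Col1a1 and 314 for Col1a2, against 1283 and 1205 in iPSC-OB. CPM are reads scaled to the same library total, here without Rn45s, the ribosomal RNA precursor, and were worked out from the base mean and the shrunken fold. The study's embryonic stem cells (ESC), whose table was normalised separately, held 10.3 and 0.669 by a related estimate, and these levels carry no test. That estimate took the base mean as that of equal groups of ESC, osteoblast cultures grown from them and such cultures sorted for the reporter. The deposited folds of both kinds of culture over ESC entered it. MEF feeders are fibroblasts and make these collagens. Of 15 fibroblast genes, 14 had higher estimated levels in iPSC than in ESC, and their summed levels were 4129 in iPSC, 2540 in ESC and 17514 in iPSC-OB. Fn1, which stem cells also express, made up 2317 of the iPSC sum and 1942 of the ESC sum. Acta2 and Tagln, contractile genes of activated fibroblasts and smooth muscle, stood at 168 and 174 in iPSC against 0.376 and 0.85 in ESC. Dcn and Lum, also fibroblast genes, were at 1.92 and 0.314 in iPSC. The part of feeder RNA in the iPSC libraries was not tested.

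Of the 10 genes with most reads in iPSC-OB, leaving out the ribosomal RNA precursor Rn45s, 6 were basement membrane and matrix genes, namely Col4a1, Col4a2, Lama1, Sparc, Lamc1 and Lamb1; the ranking is by reads, not by level per length. Col4a1, the main chain of basement membrane collagen, took 1.81% of iPSC-OB reads and 0.0129% of iPSC reads by the estimate, with a deposited fold of 7.09 ± 0.56 (adjusted p = 4.67e-35). Its partner Col4a2 took 1.28% and 0.00853% (7.18 ± 0.58). The laminin-111 chains rose together: Lama1 by 8.32 ± 0.58, Lamb1 by 4.36 ± 0.54 and Lamc1 by 4.27 ± 0.54. Nidogen 1 (Nid1), which links laminin to collagen IV, rose by 4.22 ± 0.56, and perlecan (Hspg2) by 2.04 ± 0.45. Over the list of 21, 16 rose and 2 fell (median 3.12), and the list's summed share was 6.49% of iPSC-OB reads against 0.338% of iPSC reads. The falls were Col18a1 (-1.79 ± 0.50) and Lama5 (-0.74 ± 0.23), chains of epithelial and vascular basement membranes. Col4a1 and Col4a2 start head to head on mouse chromosome 8. In RefSeq on GRCm38.p6, Col4a1 starts at 11312826 on the minus strand and Col4a2 at 11312805 on the plus strand. The starts are 21 bases apart, and by these positions the first bases of the 2 genes overlap, with no gap between them. Their deposited folds differed by less than either SE.

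Parietal endoderm is known for making such a matrix, and its regulators and receptors were examined next. A list of 16 parietal endoderm genes, put together after these values had been seen, had 16 rises and 0 falls, which is a description of chosen genes and no support for the cell type. Among its regulators, Gata4 rose by 5.59 ± 0.43, Gata6 by 3.96 ± 0.53 and Sox17, with 919 and 1701 reads against 47, 20 and 14, by 5.33 ± 0.58. Sox7 had 309 and 1075 reads against 5, 4 and 5, and thrombomodulin (Thbd) 1139 and 2000 reads against 76, 49 and 44. Sox7, Sox17 and Thbd were all higher in library B than in A after scaling. Dab2, an endocytic adaptor of extraembryonic endoderm, rose by 5.31 ± 0.21, and Pdgfra, a receptor of primitive endoderm and of mesenchyme, by 6.12 ± 0.30. Gata4, Gata6 and Sox17 also serve heart, gut or endothelium, so no single gene of these marks the cell type.

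Endoderm and liver genes had the highest median (5.94) of the 51 lists, leaving aside those put together after the values were seen. Of 24 tested, 22 rose and none fell. Of the 7 members with base means of 10 to 100, 7 lay above every iPSC library in both iPSC-OB libraries. This held for 41.6% of all such genes. The 20 members with recovered reads include more strongly read genes, recovered mainly where 1 side had few reads. They are therefore not set against that share. Among regulators, Hnf4a, the nuclear receptor that drives liver and yolk sac genes, had 905 and 262 reads against 2, 0 and 1 (7.92 ± 0.73). Among secreted carriers, Rbp4 (retinol binding protein) had 7055 and 1313 reads against 14, 14 and 8, transthyretin (Ttr) 3021 and 368 reads against 3, 0 and 0, and Apoa1, the main protein of high-density lipoprotein, 4129 and 717 reads against 2, 1 and 3. Apob rose by 7.20 ± 0.74 and transferrin (Trf) by 6.27 ± 0.59. Albumin (Alb), the defining product of hepatocytes, had 102 and 15 reads against 0, 0 and 0, and Ahsg, a liver serum glycoprotein (1.49 ± 0.82), was not called. Library A held more than library B after scaling in 6 of the 7 members with base means of 10 to 100, and in 2784 of all 4077 such genes (68.3%). A list of 16 yolk sac visceral endoderm genes, assembled with these values known, had 16 rises.

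Of 24 epithelial genes, 16 rose and 4 fell. The simple keratins Krt18 (2.72 ± 0.18), Krt8 (1.92 ± 0.19) and Krt19 (2.11 ± 0.22) and the desmosome gene Dsp (1.86 ± 0.17) rose, and the basal keratins of stratified epithelium rose further from near absence, with 2934 and 163 reads against 1, 0 and 1 for Krt5 and 2908 and 181 reads against 4, 1 and 2 for Krt15. Krt14 had 1679 and 64 reads against 12, 13 and 5 and Krt6a 4924 and 304 reads against 4, 3 and 0, and library A was the higher in each of these 4 keratins. Epcam, which pluripotent cells also express, fell by 1.44 ± 0.17, E-cadherin (Cdh1) by 2.10 and Grhl2 by 2.59. Of 9 airway and mucosal secretory genes tested of 21 listed, 8 rose. They include lactoferrin (Ltf), with 430 and 115 reads against 0, 0 and 2, the club cell enzyme Cyp2f2, with 959 and 53 reads against 1, 0 and 1, lipocalin 2 (Lcn2), with 473 and 44 reads against 0, 0 and 0, and the membrane mucin Muc4, with 368 and 50 reads against 1, 0 and 0. Motile cilia genes did not follow: 1 of 15 rose (the axonemal dynein Dnah9, with 61 and 8 reads against 0, 2 and 0) and 6 fell, among them Rfx2, Ccdc40, with 48 and 5 reads against 205, 186 and 176, Ccno and Rsph1. Foxj1, the master regulator of motile cilia, stood at 1.18 ± 0.59 (adjusted p = 0.0811).

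Muscle genes rose, those of heart among them. Of 19 cardiac genes tested, 16 rose and none fell (median 3.96). Tnnt2, the cardiac troponin T, rose by 5.78 ± 0.69, and Tnni1, the troponin I of slow and fetal heart muscle, had 320 and 214 reads against 3, 1 and 0. The slow and cardiac myosin heavy chain Myh7 rose by 6.58 ± 0.54. Myl3, its essential light chain, had 634 and 4074 reads against 10, 5 and 5, most of it in library B, the reverse of the keratins. The sarcomere genes Ttn (0.73 ± 0.60), Tnni3 (0.65 ± 0.48) and Actn2 (0.47 ± 0.44) were not called. Of 14 genes of smooth muscle and pericytes 9 rose, and Notch3 fell (-1.22 ± 0.30). Smooth muscle myosin (Myh11) had 1154 and 437 reads against 41, 37 and 42, and desmin (Des) 807 and 542 reads against 107, 72 and 86. Skeletal muscle was hardly represented: only 6 of 18 genes reached a base mean of 10, of which 3 rose (Pax3, Des, Acta1) and 1 fell (Mylpf, -4.49 ± 0.28). The CArG box, the serum response factor motif searched on both strands, was in 1 of 10 smooth muscle and 3 of 17 cardiac promoter windows, against 1.61% of all.

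Other mesenchymal and blood-associated lineages were mixed. Adipocyte genes rose in 11 of 13 (median 3.96). Pparg, the master regulator of fat cells, had 199 and 96 reads against 3, 2 and 0, and the fatty acid carrier Fabp4 2141 and 492 reads against 3, 1 and 4. Cebpa (1.33 ± 0.80) and Cebpb (0.78 ± 0.39) were not called. Cartilage genes rose in 10 of 16 with 1 fall. Sox9, the regulator of cartilage, had 584 and 66 reads against 63, 45 and 34 (2.17 ± 0.64, adjusted p = 0.00197), and its partners Sox5 and Sox6 rose, with 334 and 34 reads against 5, 1 and 7 for Sox6. Matrix genes of cartilage were mixed. Aggrecan (Acan) fell, with 7 and 6 reads against 98, 126 and 111, and Col2a1 stood at 1.00 ± 0.63 (adjusted p = 0.186). Col9a2, Col9a3 and Col10a1 were not called either. Chad, with 32 and 40 reads against 2, 1 and 0, and Col11a2, with 241 and 29 reads against 22, 19 and 18, rose. Col9a1, Hapln1 and Comp were also called risen. Of 15 endothelial genes 7 (46.7%) rose and 2 (13.3%) fell, against 29.9% and 27.4% of all genes. VE-cadherin (Cdh5) had 343 and 1097 reads against 8, 5 and 5, more in library B. Pecam1, which naive stem cells also express, fell (-2.56 ± 0.51), and Tie1 (1.69 ± 0.93) and Vwf (-0.80 ± 0.47) were not called. Macrophage and osteoclast genes rose in 8 of 17 tested (47.1%) and fell in 2 (11.8%). The receptor Csf1r had 637 and 349 reads against 33, 17 and 24 and the lysosomal glycoprotein Cd68 378 and 437 reads against 104, 96 and 64. Ptprc (CD45), which defines blood cells, was not called (1.21 ± 0.70, adjusted p = 0.144), nor was Acp5, the osteoclast phosphatase, with 155 and 161 reads against 83, 102 and 108. Red cell genes were near the limit, although the embryonic globin Hbb-y had 83 and 10 reads against 0, 0 and 0, at least 33.3-fold over a floor of 3 reads.

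Neural genes moved both ways. Of 28, 8 rose and 7 fell (median -0.09), shares of 28.6% and 25% that are near those of all genes. The undifferentiated iPSC held reads of Olig1, an oligodendrocyte lineage factor (6 and 1 reads against 393, 330 and 343), and of the heavy neurofilament Nefh (6 and 3 reads against 310, 322 and 249), both of which fell, and Tubb3, a tubulin of neurons, fell by 2.20. The glial filament Gfap had 731 and 59 reads against 1, 3 and 3 and rose. Myelin basic protein (Mbp), which is also made outside nerve, rose by 2.60 ± 0.32. Library A held more than library B after scaling in 13 of the 13 members with base means of 10 to 100, against the 68.3% of all such genes given above. In the neural crest list 7 of 14 rose and 3 fell. Ednrb, the endothelin receptor of crest and other mesenchyme, had 507 and 119 reads against 2, 1 and 1. Foxd3, a factor of early crest that pluripotent cells use, had no read in iPSC-OB and 165, 164 and 134 in iPSC, at least 122-fold lower.

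The genes that differed most between the iPSC-OB libraries, chosen by that difference among base means of 10 to 100, are described next. Mepe and Dmp1 were among the 15 genes furthest towards library A. Those in A included Six6, a transcription factor of the retina and eye field, with 136 and 1 reads against 1, 3 and 2, Hes5, a Notch target of neural progenitors, with 77 and 0 reads against 3, 1 and 4, and Dsc3 and Crct1 of stratified epithelium, with 104 and 0 reads against 7, 1 and 3 and 275 and 3 reads against 5, 1 and 4. Library B had no read of 11 of these 15 genes. Towards library B, 5 of 15 were Xlr genes, a family of near-identical genes on the X chromosome that can share reads, with 11 and 188 reads against 1, 0 and 0 for Xlr5a, and Taf7l, an X-linked TFIID subunit known from germ cells and fat, had 17 and 252 reads against 20, 23 and 17. The authors' test called 13 of the 15 genes highest in B and 5 of the 15 highest in A as risen.

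**Figure D4:**
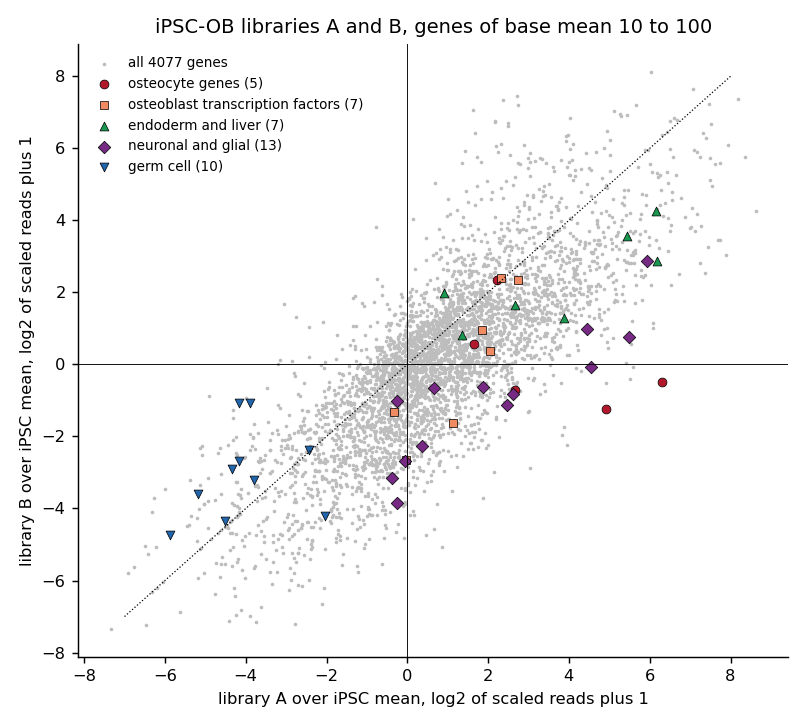
Each point is 1 of 4077 genes with a base mean of 10 to 100, placed by iPSC-OB library A (horizontal) and library B (vertical) over the mean of the iPSC libraries, as log2 of depth-scaled reads plus 1; members of 5 lists are coloured and the dotted line marks equal change. Most germ cell genes lie low in both libraries, endoderm genes lie high in both, and neuronal genes lie below the line, towards library A.

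Genes of the pluripotency network fell. Of 30 core and naive genes, all tested, 24 fell and 2 rose (median -5.81). Pou5f1 (Oct4) fell by 7.97 ± 0.23 on the log2 scale, Nanog by 8.04 ± 0.34, Esrrb by 7.71 and Zfp42 (Rex1) by 4.40. Pou5f1, Nanog and Esrrb also gave the direction of the table, so their sign is not a finding. Sox2, which neural and foregut cells keep, fell less, by 3.39. Dppa5a fell by 7.09 and Rex2 by 8.73. Klf4 (1.13 ± 0.47, adjusted p = 0.0363) and Tbx3 (1.08 ± 0.36, adjusted p = 0.00668), which act in many differentiated tissues, rose. Tfcp2l1 (0.28 ± 0.53), Klf5 (-0.41 ± 0.44), Fbxo15 (-0.65 ± 0.64) and Jam2 (-0.67 ± 0.53) were not called.

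Transcripts of primed pluripotency and the primitive streak, which were present in the iPSC, fell in 15 of 17. Lefty2, a Nodal inhibitor, fell by 8.62, Dnmt3b by 4.90 and Pou3f1 by 3.84. Fgf5, the classical marker of epiblast, fell by 4.85, and the endoderm gene Foxa2 was the 1 rise. All 10 tested genes of the 2-cell-like state, a rare fluctuation of stem cells, fell. Zscan4c had 4 and 13 reads against 805, 220 and 167 and Zscan4f 6 and 16 reads against 840, 249 and 196. iPSC library A held several times the reads of B and C in both, and the iPSC-OB libraries were below all of them; the Zscan4 copies are near-identical and can share reads. Germ cell genes fell in 13 of 16 and rose in none. Piwil2, which guards germ cells against transposons, had 28 and 24 reads against 361, 418 and 411, and Ddx4 (Vasa) 20 and 5 reads against 209, 207 and 204.

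Some cell cycle genes fell. DNA replication genes fell in 30 of 33 (median -1.68), among them the ribonucleotide reductase subunit Rrm2 (-2.89 ± 0.16), cyclin E1 (Ccne1, -4.48 ± 0.26), the helicase subunit Mcm6 (-2.52 ± 0.15) and the sliding clamp Pcna (-2.28 ± 0.18). Of 35 mitosis and spindle genes, 13 (37.1%) fell and none rose (median -0.77), and 22 were not called. Of all genes, 27.4% fell and 29.9% rose. Cdc20, the activator of the anaphase-promoting complex, fell by 2.0 ± 0.37, Bub1 by 1.78, Mad2l1 by 1.49 and Ccnb1 by 1.57, while Mki67, the marker of dividing cells, stood at -0.52 ± 0.39 (adjusted p = 0.277). CHR (TTTGAA), the motif of the mitotic gene repressor complex, was in 19 of 28 mitosis promoter windows (67.9%) against 13.8% of all, and CCAAT in 75% against 42.9%, both strands searched. The windows run from 250 bases before to 50 after a start. Of 16 CDK inhibitor and senescence genes, 13 rose and 1 fell. Cyclin D2 (Ccnd2) rose by 2.22 ± 0.29, p21 (Cdkn1a) by 1.70 ± 0.22, and the Cdkn2a locus, which rises in ageing cultures, had 682 and 237 reads against 116, 64 and 59.

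Promoters of the 4 mitosis genes named above as fallen are shown to place the motifs in their sequence. Each is the RefSeq sequence (GRCm38.p6) of the 250 bases before the gene's start, 5′ to 3′ on the gene's strand, at chr4:118437344-118437593 (minus) for Cdc20, chr2:127831860-127832109 (minus) for Bub1, chr6:66534971-66535220 (plus) for Mad2l1 and chr13:100786487-100786736 (minus) for Ccnb1. Capitals mark TTTGAA or its reverse complement TTCAAA, and CCAAT or its reverse complement ATTGG.

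Cdc20: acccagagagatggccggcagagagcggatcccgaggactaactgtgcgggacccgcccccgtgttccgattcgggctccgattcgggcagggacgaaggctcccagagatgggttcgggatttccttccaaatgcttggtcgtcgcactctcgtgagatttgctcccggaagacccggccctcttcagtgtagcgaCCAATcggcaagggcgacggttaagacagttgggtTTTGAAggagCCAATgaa
Bub1: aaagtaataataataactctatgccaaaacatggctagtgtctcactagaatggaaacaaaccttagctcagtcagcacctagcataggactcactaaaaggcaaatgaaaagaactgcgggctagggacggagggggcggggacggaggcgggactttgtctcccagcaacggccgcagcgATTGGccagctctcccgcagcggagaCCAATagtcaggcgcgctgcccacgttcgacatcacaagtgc
Mad2l1: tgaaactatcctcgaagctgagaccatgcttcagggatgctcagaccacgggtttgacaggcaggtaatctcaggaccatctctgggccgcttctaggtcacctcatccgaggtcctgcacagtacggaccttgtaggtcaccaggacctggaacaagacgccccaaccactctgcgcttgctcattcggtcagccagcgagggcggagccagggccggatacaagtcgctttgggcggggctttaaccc
Ccnb1: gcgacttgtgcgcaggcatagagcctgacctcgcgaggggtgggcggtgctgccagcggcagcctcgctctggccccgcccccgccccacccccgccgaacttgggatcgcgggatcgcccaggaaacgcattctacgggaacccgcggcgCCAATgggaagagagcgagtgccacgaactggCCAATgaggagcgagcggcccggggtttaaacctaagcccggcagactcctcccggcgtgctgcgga

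In the Cdc20 stretch TTTGAA stood 1 time and CCAAT on either strand 2 times, and the last motif ended 3 bases before the start. CCAAT on either strand stood 2 times in the Bub1 stretch and 2 times in the Ccnb1 stretch, ending 37 and 62 bases before the start, and TTTGAA is not in them. The Mad2l1 stretch holds neither motif in these letters. A match is a description of the sequence, not a shown site.

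Many growth and metabolism genes fell. Ribosomal protein genes fell in 23 of 30 with a median of -0.52, led by Rps2 (-1.13 ± 0.15) and Rplp0 (-1.08 ± 0.16). Oxidative phosphorylation genes fell in 15 of 25 (median -0.49), with the ATP synthase subunits Atp5a1 (-1.14 ± 0.14) and Atp5b (-1.13 ± 0.18) in front. Glycolysis genes fell in 11 of 20, led by pyruvate kinase (Pkm, -1.87 ± 0.14) and lactate dehydrogenase (Ldha, -1.45 ± 0.15), and the hexokinase Hk1 rose (1.11 ± 0.25). Of 15 genes in common use as references, 10 fell and 1 rose (B2m), with a median of -0.62; Gapdh stood at -1.44 ± 0.18 and Actb at -0.56 ± 0.18. Among the most read iPSC genes were the chaperones Hsp90ab1 and Hsp90aa1 and the nucleolar proteins Npm1 and Ncl. Hsp90aa1 took 0.536% of iPSC reads and 0.0888% of iPSC-OB reads, and Ncl 0.378% and 0.0634%. Leaving out Rn45s, which held 4.13% of all iPSC-OB reads and 5.59% of all iPSC reads, the 10 most read genes together took 8.95% of iPSC-OB reads and 5.09% of iPSC reads, and 3 of them were the same.

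Genes that write or remove chromatin marks mostly fell: 16 of 25 fell and 6 rose. The de novo DNA methyltransferase Dnmt3b fell by 4.90 ± 0.25, the DNA demethylating enzyme Tet1 by 4.0, and the Polycomb cofactors Jarid2 and Mtf2 by 2.85 and 1.96. Tet3 and Bmi1 were among the rises, with 393 and 199 reads against 76, 51 and 53 for Bmi1. Imprinted genes, which are expressed from 1 parental copy and often promote fetal growth, rose in 16 of 23. H19 rose by 4.36 ± 0.30, its neighbour Igf2 by 4.83 ± 0.34, Plagl1 by 3.39 ± 0.20 and Zim1, with 1135 and 478 reads against 33, 28 and 27, by 4.41 ± 0.31. Phlda2, a brake on placental growth, and Magel2 fell.

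In the BMP and TGF-beta families, whose ligands drive bone formation, 22 of 36 genes rose and none fell. Of the ligands, Bmp2 had 574 and 301 reads against 77, 57 and 69 and Tgfb3 928 and 347 reads against 61, 53 and 54. Bmp4 stood at -0.04 ± 0.50 and was not called. The receptors Tgfbr2 and Tgfbr3 rose by 3.90 ± 0.37 and 4.06 ± 0.34. Id1, a direct BMP target, stood at 0.10 ± 0.41 (adjusted p = 0.863). In the Wnt pathway 14 of 36 rose and 7 fell, shares of 38.9% and 19.4% against 29.9% and 27.4% of all genes. The ligand Wnt4, with 491 and 329 reads against 45, 44 and 38, and the secreted Dkk3 (2.92 ± 0.25) rose. Wnt8a, a streak ligand, had no read in iPSC-OB and 285, 165 and 151 in iPSC, at least 156-fold lower, and the nuclear effectors Tcf7 and Lef1 fell by 3.25 and 4.50. Retinoic acid genes rose in 7 of 17 (41.2%) and fell in 3 (17.6%), also against 29.9% and 27.4% of all genes. The added retinoic acid had been washed out at day 5. The clearing enzyme Cyp26b1 had 1707 and 554 reads against 5, 3 and 7, the synthesising Aldh1a1 1030 and 292 reads against 3, 1 and 0 and the retinol receptor Stra6 720 and 2012 reads against 13, 6 and 11, the last higher in library B. Hox genes, which record position along the body, rose in 13 of the 17 tested of 39. The reads were few: Hoxb4 had 128 and 36 reads against 7, 6 and 8 and Hoxb8 84 and 28 reads against 4, 7 and 5.

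Many genes of acute ERK signalling fell. Of 18 immediate early genes, which respond to growth factors within minutes, 9 fell and 3 rose. Fosb fell by 5.06 ± 0.28, Egr1 by 3.27 ± 0.24, Ier2 by 2.32 and Fos by 2.19 ± 0.21, and Jun stood at -0.36 ± 0.23 (adjusted p = 0.183). Fosl2, Ier3 and Nr4a3 rose. Of 18 ERK feedback genes 13 fell and 1 rose, led by Etv5 (-3.68 ± 0.44), Dusp6 (-1.59 ± 0.22) and Etv4 (-3.16 ± 0.47). The CArG box was in 2 of 14 immediate early promoter windows. Interferon response genes rose in 14 of 21 and fell in 3. Ifit3, an antiviral protein among the rises, had 139 and 62 reads against 7, 7 and 8, while Irf1 and Gbp2 fell by 2.28 and 2.93. The interferon motif (2 GAAA runs with 2 bases between them, both strands) was in 11 of 18 windows of that list and in 3.48% of all. Of 13 genes of antigen presentation 4 rose and 6 fell. The surface chains B2m (2.95 ± 0.20), H2-K1 (1.8 ± 0.40) and H2-D1, with 366 and 409 reads against 116, 79 and 72, were among the rises, and the immunoproteasome subunits Psmb10 (-2.85 ± 0.39) and Psmb8, with 71 and 23 reads against 220, 178 and 170, among the falls. Complement genes, made by liver, yolk sac and mesenchyme, rose in 16 of 19. C3 had 5610 and 2149 reads against 8, 12 and 13 and the C1 inhibitor Serping1 2846 and 2042 reads against 73, 59 and 45.

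The change was set against that of ESC-OB, osteoblast cultures grown in the same way from Col2.3GFP ESC at passages 20 to 30 (3 labelled samples a side), in the authors' other deposited table. The tables share no sample, were fitted separately and shrink folds to a different degree. Of 13761 genes with a base mean of at least 10 in both, the change was more positive in iPSC-OB for 1995 (14.5%) and more negative for 2903 (21.1%), by the difference of folds over its combined SE, with a 2-sided normal p adjusted by Benjamini-Hochberg. The list counts of these differences given below are to be read against these shares of all genes. Where both tables called a change, 6720 of 7077 genes (95%) moved the same way and 357 moved in opposite directions. Over the 9817 genes with base means of at least 100 in both, the folds had a Pearson correlation of 0.80 across genes, which are not independent replicates.

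Immediate early genes were among the largest differences. Fosb stood at -5.06 here and at 9.86 in the ESC table, a difference of -14.93 ± 0.53 (adjusted p = 6.07e-170), Egr1 at -3.27 and 11.12, and Fos at -2.19 and 9.22. In the whole immediate early list, 17 of 17 genes were more negative in iPSC-OB and none was more positive. Summed estimated levels of the list were 1088 CPM in iPSC and 701 in iPSC-OB, against 204 in ESC and 6841 in ESC-OB. The undifferentiated groups thus differed as well as the cultures, and these levels carry no test. Enpp2 (autotaxin), the guanylate binding protein Gbp2b, Psmb8 and the protocadherin Pcdh7 were also among the largest differences, from -12.38 ± 1.02 to -10.57 ± 1.22. Among osteoblast matrix genes, 11 of 19 were more negative in iPSC-OB and 0 more positive. Col1a2 stood at 1.89 and 11.73, a difference of -9.84 ± 0.69, and Col1a1 at 1.62 and 7.87. Estimated Col1a2 levels were 1205 CPM in iPSC-OB and 2434 in ESC-OB, against 314 in iPSC and 0.669 in ESC. Those of Col1a1 were 1283 and 2587, against 405 and 10.3. For both genes the undifferentiated groups lay further apart in ratio than the cultures, and these levels carry no test. Of 18 fibrillar and fibril-associated collagens, 12 were more negative and 1 more positive. The feeder fibroblast levels given above differed between the undifferentiated groups of both tables. Pth1r (5.47 and 8.54), Pdpn (3.2 and 5.63), Sox9 (2.17 and 8.78), Jun, Krt8, Krt18 and Epcam were also more negative in iPSC-OB.

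Towards the other side, cell cycle genes fell less in iPSC-OB. Mki67 stood at -0.52 against -2.81 (difference 2.29 ± 0.43, adjusted p = 9.29e-07), and 34 of 35 mitosis genes and 27 of 33 replication genes were more positive, with none more negative. Pluripotency genes also fell less, with 21 of 30 more positive: Nanog stood at -8.04 against -11.19, Esrrb at -7.71 against -10.65 and Pou5f1 at -7.97 against -8.81. Summed estimated levels of this list were 1183 CPM in iPSC-OB and 963 in ESC-OB, against 6756 in iPSC and 12764 in ESC. The undifferentiated groups thus lay further apart in ratio than the cultures, and these levels carry no test. The part of depth and shrinkage, which differed between the tables, in these differences of folds was not tested. Among single genes, Xlr3a rose here (5.18 ± 0.83) and stood at -3.71 in the ESC table, a difference of 8.89 ± 0.91; it is of the same X-linked family that was high in library B. Inpp5d, Tdh, Afp (11.11 against 4.79), Galnt6, Foxh1, Nr1h5 and Klf8 followed, with differences from 8.01 ± 1.24 to 5.59 ± 0.51. Of the endoderm and liver genes, 8 of 23 were more positive in iPSC-OB and 5 more negative, against 14.5% and 21.1% of all genes. Of the basement membrane genes, 3 of 21 were more positive and 13 more negative. Tubb3, Acp5, Col2a1, Pecam1 and Zfp42 were also more positive in iPSC-OB. Of the genes on the lists, 47 were called in opposite directions, among them Tnc (-1.81 and 7.45), Dusp6 (-1.59 and 3.25), Cdkn2a (2.16 and -1.20) and Apom (6.18 and -4.58). Over all genes, 357 of the 7077 called in both were.

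**Figure D5:**
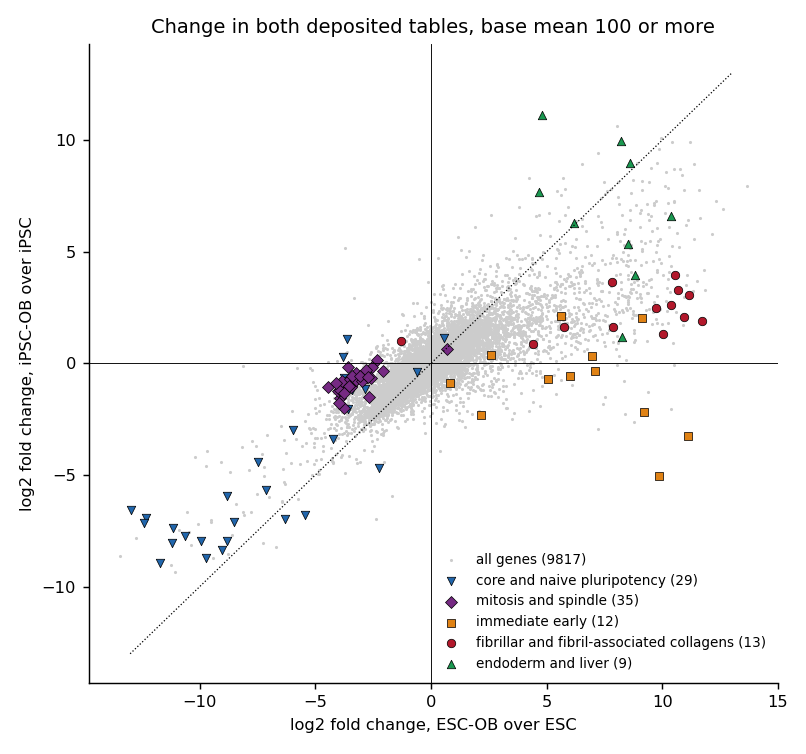
Each point is 1 of 9817 genes with a base mean of at least 100 in both tables, with the log2 fold change of ESC-OB over ESC on the horizontal axis and of iPSC-OB over iPSC on the vertical axis; 5 lists are coloured and the dotted line marks equal change. Most mitosis genes lie above the line, and most immediate early genes and collagens below it.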

How the data were processed

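RNA of iPSC-OB and iPSC was sequenced. Per the submitters' processing notes the tools were STAR 2.4.2a and DESeq2 in R 3.2.2 with build mm9, and parameters are not given in the sources used here. The authors deposited 1 table per comparison, and per the file headers it holds the base mean (a signal in normalised reads), a log2 fold change, the standard error of that fold, a test score and p-values, raw and adjusted. No value per labelled sample was used. Adjusted p under 0.05 by the authors' DESeq2 at a base mean of at least 10 was a call. From these tables were computed list counts, levels, the difference test and, with Python 3.11.15, numpy 2.4.6, pandas 2.3.3 and scipy 1.17.1, whole reads per library from the digits of the base means (step per read times reads). No count model was refitted. On simulated data with 5 libraries, all 1500 of 1500 genes tried were read back, and the difference test recovered 183 of 200 changed genes with 6 false calls among 13761 genes. Noise for the difference test was drawn from the same deposited standard errors that the test divides by, without shrinkage. Its false calls therefore check the computation only and do not measure those of the real comparison. Named genes were the 15 largest rises and falls, the 10 highest base means on each side, the 4 members of each list with the largest score and those against its direction, anchor genes, and 8 differences each way; others named were chosen after their values were seen. Some genes that this rule names are not reported here. Lists (51, with 2 added) and members were chosen with earlier results of these data known. Alternatives were other base mean minimums, a stricter threshold, re-centring, adjustment over tested genes and leaving out libraries. RefSeq promoters are of GRCm38.p6, and no coordinate of mm9 is used; the search of cardiac promoters was added after the values were seen.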

Additional observations from a re-analysis of the deposited data

Results flagged for a closer look

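For 15 genes the log2 fold change of iPSC-OB over iPSC differed from that of ESC-OB over ESC by the test of the difference itself, and these were among the 8 largest differences each way over genes with base means of at least 100 in both of the authors' deposited tables. Each pair of values gives the iPSC table first. Adjusted p-values come from a 2-sided normal test of each gene's difference over its combined SE, adjusted by Benjamini-Hochberg over 13761 genes. Fosb, an AP-1 factor of the immediate early response, stood at -5.06 and 9.86, a difference of -14.93 ± 0.53 (adjusted p = 6.07e-170). Egr1, a zinc finger factor of the same response, stood at -3.27 and 11.12, a difference of -14.39 ± 0.42 (adjusted p = 2.58e-249). Fos, the founding AP-1 gene, stood at -2.19 and 9.22, a difference of -11.41 ± 0.36 (adjusted p = 8.23e-221). These 3 genes fell in iPSC-OB and rose in ESC-OB. The summed estimated level of the immediate early list also differed between the undifferentiated groups, at 1088 CPM in iPSC and 204 in ESC, without a test. Enpp2, the secreted enzyme autotaxin, which makes lysophosphatidic acid, stood at -2.02 and 10.36, a difference of -12.38 ± 1.02 (adjusted p = 2.50e-31). Gbp2b, an interferon-induced GTPase, stood at -2.60 and 8.79, a difference of -11.39 ± 1.19 (adjusted p = 8.76e-20). Psmb8, an immunoproteasome subunit, stood at -2.28 and 8.4, a difference of -10.69 ± 0.97 (adjusted p = 6.68e-26). Pcdh7, a protocadherin, stood at -0.08 and 10.49, a difference of -10.57 ± 1.22 (adjusted p = 2.35e-16). Pcdh7 was called in the ESC table and not in the iPSC table.

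In the other direction, Xlr3a, a lymphocyte-regulated gene of the X chromosome with near-identical copies, stood at 5.18 and -3.71, a difference of 8.89 ± 0.91 (adjusted p = 1.70e-20). Inpp5d, the lipid phosphatase SHIP, stood at -0.11 and -8.13, a difference of 8.01 ± 1.24 (adjusted p = 1.94e-09). Tdh, the threonine dehydrogenase on which mouse stem cells depend, stood at -6.58 and -12.95, a difference of 6.37 ± 0.89 (adjusted p = 2.59e-11). Afp, the fetal serum protein, stood at 11.11 and 4.79, a difference of 6.32 ± 1.36 (adjusted p = 2.88e-05). Galnt6, an enzyme that starts mucin-type glycosylation, stood at 2.91 and -3.34, a difference of 6.26 ± 0.69 (adjusted p = 5.69e-18). Foxh1, a Nodal pathway factor of stem cells, stood at -4.21 and -10.21, a difference of 6.00 ± 1.52 (adjusted p = 4.95e-04). Nr1h5, a nuclear receptor, stood at -3.90 and -9.69, a difference of 5.79 ± 1.30 (adjusted p = 6.15e-05). Klf8, a zinc finger factor, stood at -0.19 and -5.78, a difference of 5.59 ± 0.51 (adjusted p = 6.48e-26). Xlr3a, Afp and Galnt6 rose in iPSC-OB, and Tdh, Foxh1 and Nr1h5 fell in both. The iPSC-OB group rests on 2 libraries that differ, and the part of those libraries, and of the separate normalisation and shrinkage of the tables, in these differences was not tested.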

How the results depend on the processing

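The counts of genes that rose and fell kept within 1.5 times of 4278 and 3917 under other base mean minimums, a stricter threshold, a 2-fold minimum, re-centring and another adjustment, ranging from 2940 to 4596 and from 2710 to 4155. Re-centring on the median gene, a shift of 0.06 on the log2 scale, gave 4056 rises and 4155 falls, and of 962 gene folds it took 8 over to not called and 11 to called, with none reversed. At base means of at least 100, 30 of 106 list counts moved by more than 1.5 times. Genes whose change was more negative than in ESC-OB numbered 1837 of those with base means of at least 100 in both tables, against 2903 of all, where fewer genes were tested, and re-centring each table gave 2513 more positive and 2648 more negative. Leaving out 1 library at a time, 1767 to 2442 genes of base mean 10 to 100 had every iPSC-OB library above every iPSC library, against 1694, and 1096 to 1683 had every one below, against 1052. The 1683 came without iPSC-OB library A and the 2442 without B, each with 1 library left on that side. Leaving a library out can only keep or raise such a count, so that no count could fall. These counts are therefore no check of the result and carry no test. In log2 of scaled reads plus 1, the same exercise gave ranges of -0.045 to 9.14 for Ibsp, -1.24 to 4.91 for Dmp1, -0.48 to 6.29 for Mepe, -0.71 to 2.67 for Phex, -0.45 to 1.62 for Sost and -3.08 to 0.81 for Sp7. The first 5 of these reversed without iPSC-OB library A. Sp7 reversed to 0.81 without iPSC-OB library B and to 0.20 without iPSC library C. Runx2 kept its direction (2.35 to 2.80). Bglap (0.35 to 4.08) and Bglap2 (1.15 to 3.68) kept theirs in sign only. Their lowest values, without iPSC-OB library A, rest on 1 read each in library B. No paired analysis was possible because the table holds no values per labelled sample and the recovered libraries carry no replicate number. Genes read fewer than about 10 times per library were not counted, and their folds are the most shrunk.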

Other observations

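Genes of the secretory pathway and of stress in the endoplasmic reticulum rose in 12 of 22 and fell in 1 (Atf4). Creb3l1 (OASIS), the stress transducer that osteoblasts use to secrete collagen, had a log2 fold change of 3.93 ± 0.49 in the authors' deposited table, and its relative Creb3l2 had 3.61 ± 0.36. The sensors' target Xbp1 rose by 1.34 ± 0.23 and the degradation adaptor Sel1l by 1.86 ± 0.21, while the chaperones Hspa5 (BiP) and Hsp90b1 stood at 0.30 ± 0.14 and 0.03 ± 0.17 and were not called. Of 14 cytokine and chemokine genes tested of 26, 7 rose and 2 fell. The acute phase gene Saa3 had 838 and 291 reads in iPSC-OB libraries A and B and 3, 3 and 2 in the iPSC libraries. Ptges, which makes prostaglandin E2, had 766 and 280 reads against 108, 81 and 76, and Lif, the cytokine that keeps mouse stem cells undifferentiated, 230 and 440 reads against 100, 64 and 38. Il11 fell, with 8 and 1 reads against 32, 23 and 26.

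Of 14 trophoblast and extraembryonic genes 8 rose and 3 fell. The rises included those of extraembryonic endoderm described above, Krt7, with 3120 and 449 reads against 41, 32 and 30, and Gata3, with 119 and 149 reads against 24, 7 and 14. The placental factors Ascl2, with 10 and 0 reads against 50, 53 and 52, and Eomes (-3.25 ± 1.10) fell, Cdx2 stood at 0.35 ± 0.78, and the placental lactogen Prl3d1 was near absent, with 0 and 2 reads against 0, 0 and 0. Of 12 kidney and gonad mesoderm genes 7 rose and 2 fell. Markers of mesothelium, the lining of body cavities, were among the rises: mesothelin (Msln) had 1319 and 193 reads against 12, 18 and 12, Upk3b 210 and 76 reads against 8, 8 and 11 and Wt1 91 and 213 reads against 30, 21 and 26, the last higher in library B. Nphs1 (nephrin), the podocyte slit protein, was read in undifferentiated iPSC and fell, with 7 and 6 reads against 354, 409 and 338.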
